A study of Mus musculus with 15 samples.

Results

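The K2P genes described here are Kcnk1, Kcnk2, Kcnk3, Kcnk10, Kcnk12, Kcnk13, Kcnk16 and Kcnk18. They were chosen by symbol, and all 8 were found among the 39179 gene identifiers of a count table from mouse dorsal root ganglia. K2P channels are potassium leak channels: each subunit carries a pair of pore loops, subunits join as dimers, and the open channels hold the membrane near the potassium equilibrium potential. In sensory neurons of the dorsal root ganglion they set how much current is needed to fire, and several of them respond to stretch, heat, pH, lipids or calcium signalling. The families differ in such properties: TWIK (weak inward rectifier), TREK (lipid- and stretch-gated), TASK (acid-sensitive), THIK (halothane-inhibited), TALK (alkaline-activated) and TRESK (calcineurin-activated).

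The study sequenced mRNA from the lumbar 4 to 6 ganglia of single mice aged 3 to 6 months, on a mixed background that is mostly C57bl6. Knockout mice were labelled Wnt1-Cre; mirflox/flox: Cre under the Wnt1 promoter, which is active in the neural crest that gives rise to the neurons and glia of the ganglion, deletes a floxed microRNA cluster, which the series title names as miR-183. Spared nerve injury (SNI) ties and cuts the common peroneal and tibial branches of the left sciatic nerve and leaves the sural branch whole. The 15 libraries, each from 1 animal, were 5 control naive (replicates 1, 2, 3 and 6 labelled Wnt1-Cre and replicate 7 labelled wt), 4 knockout naive (replicates 4, 5, 8 and 9), 3 control SNI (replicate 15 Wnt1-Cre, replicates 18 and 23 wt) and 3 knockout SNI (replicates 13, 19 and 21). The wt controls lack Cre, so part of the genotype comparison, above all after injury, cannot be told apart from the presence of Cre. The wt share also differs between control naive and control SNI. Injury in controls, and any difference between the genotypes' injury effects, carry the same limit. The time between surgery and collection is not given in the sources used here.

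The libraries held 5252920 to 10822762 counts, at which 3 counts equal 0.277 to 0.571 CPM (counts scaled to a common library size; the levels given below also use TMM factors). Control SNI replicate 23 was the shallowest and carried 7.43% mitochondrial counts, against 2.26% to 3.60% in the others. The animal numbers of the SNI knockouts (948 to 956), SNI controls (974 to 976) and naive mice (1041 to 1082) do not overlap, so the order of the animals and the injury groups cannot be told apart. After injury, the order of the animals and the genotype cannot be told apart either. The microRNA hairpins are too short for an mRNA library and gave no direct check of the deletion. Slc25a1, the mitochondrial citrate carrier, stood at 91.9 ± 5.00 CPM (SD, n = 5) in control naive and 254 ± 18.2 CPM (SD, n = 4) in knockout naive, and Atf3, a transcription factor induced by axon injury, rose by 4.26 (log2) in controls and 5.31 in knockouts. The Slc25a1 levels are a description and no independent check of the deletion. All 9 sensory neuron markers were above 1 CPM in at least 1 library of every group.

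The deleted microRNAs are miR-183, miR-96 and miR-182. A microRNA pairs with messenger RNAs mainly through its seed, bases 2 to 8, and the mature sequences are shown because the seed decides which K2P transcripts carry a matching site. They lie on the minus strand of chromosome 6 (RefSeq, GRCm38.p6) at 30169711-30169732, 30169506-30169528 and 30165962-30165986. Capitals mark the seed, 5′ to 3′.
miR-183-5p: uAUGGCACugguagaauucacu
miR-96-5p: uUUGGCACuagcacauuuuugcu
miR-182-5p: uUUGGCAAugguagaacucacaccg
No pair of these shares a whole seed, but the seeds of miR-96 and miR-182 differ in their last base alone. Those of miR-183 and miR-96 differ in their first base alone.

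In the longest annotated 3′ UTR (GENCODE M21, GRCm38), 5 of the 8 K2P genes held at least 1 8mer, the longest class of seed match, searched on the transcript strand as GTGCCATA for miR-183, GTGCCAAA for miR-96 and TTGCCAAA for miR-182. Of 14451 tested genes with an annotated 3′ UTR, 1348 (9.33%) held one, with no matching on UTR length. The members' 8mers are shown with 8 bases on either side, 5′ to 3′ on the transcript strand, with the match in capitals.
Kcnk1, miR-183 site, chr8:126029942-126029965, plus strand: atcacctgGTGCCATAcactgggg
Kcnk2, miR-183 site, chr1:189209500-189209523, minus strand: ctcctaacGTGCCATAaggcctat
Kcnk2, miR-182 site, chr1:189208686-189208709, minus strand: agtggttcTTGCCAAActggaggg
Kcnk10, first miR-183 site, chr12:98434638-98434661, minus strand: atttcactGTGCCATAcacaactg
Kcnk10, second miR-183 site, chr12:98429828-98429851, minus strand: gtcaacttGTGCCATAgatgctgc
Kcnk16, miR-182 site, chr14:20262501-20262524, minus strand: gatcgtggTTGCCAAAtcactact
Kcnk18, miR-182 site, chr19:59236937-59236960, plus strand: tccagccgTTGCCAAAagcggctt
Each miR-182 8mer also contains the shorter 7mer-A1 match of miR-96 (TGCCAAA). The 3′ UTR of Kcnk10, at 5370 nt the longest of the 8, also held 7mer matches, and its second 8mer lies in 1 of its annotated transcripts only. The 8mer of Kcnk1 likewise lies in 1 annotated transcript only. Annotated transcripts with shorter 3′ UTRs also lack the 8mers of Kcnk2 and the first 8mer of Kcnk10. Kcnk3, Kcnk12 and Kcnk13 held no match of 7 or 8 bases to any of the 3 seeds in their annotated 3′ UTRs, of which that of Kcnk12 is 139 nt long. A match is a description of the sequence and does not show that the microRNA acts there.

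**Figure D1:**
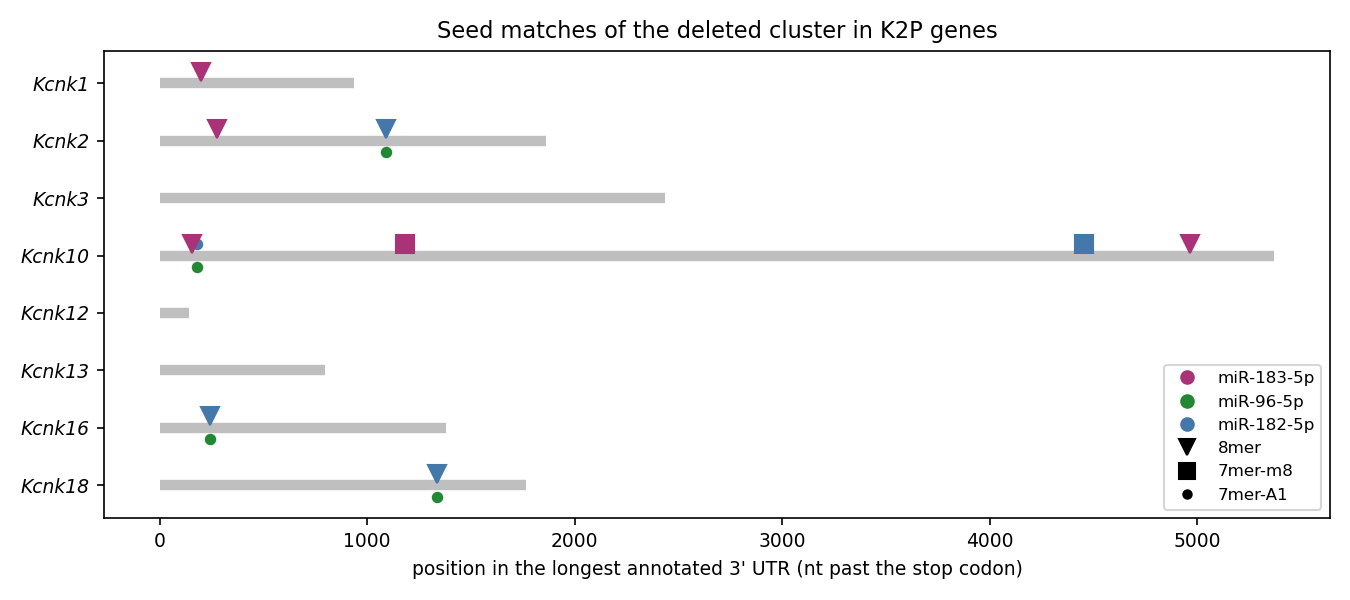
Seed matches of miR-183-5p, miR-96-5p and miR-182-5p along the longest annotated 3′ UTR of each K2P gene. The x axis is the distance past the stop codon in nucleotides, grey bars are the UTRs, colours give the microRNA and marker shapes the class of match; Kcnk3, Kcnk12 and Kcnk13 carry none.

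Levels between genes were compared as CPM per kilobase of exon. Kcnk1 stood far above the other members in all 4 groups, at 31.1 ± 1.42 (SD, n = 5) in control naive, 25.9 ± 3.31 (n = 4) in knockout naive, 25.9 ± 1.69 (n = 3) in control SNI and 19.2 ± 2.66 (n = 3) in knockout SNI, with no overlap with the gene below it. Its share of the 8 genes' summed per-kilobase level ran from 66.3% to 75.8% in the control naive libraries, 55.9% to 67.9% in knockout naive, 61.5% to 70.6% in control SNI and 45.1% to 52.4% in knockout SNI. The knockout SNI shares lay below those of every other library. The summed level of the 8 genes itself ranged only from 39.4 ± 2.42 in knockout SNI to 44.6 ± 2.03 in control naive.

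Kcnk18 was next in order per kilobase in control naive (3.32 ± 0.836), knockout naive (4.89 ± 0.724) and knockout SNI (5.46 ± 0.610), and it stood apart from the gene below it in both knockout groups but not in control naive. In control SNI it was lower (2.37 ± 0.477) and overlapped Kcnk2 above it and Kcnk12 below it. Kcnk2 and Kcnk3 lay between 2.60 and 3.95 per kilobase in the 4 groups. Kcnk16 was last in both naive groups (0.0328 and 0.0516 per kilobase) and, after injury, lay above Kcnk10 with no overlap (1.05 ± 0.0455 in control SNI and 1.79 ± 0.607 in knockout SNI). These are levels in whole ganglia, where fewer cells of a type and less RNA per cell cannot be told apart.

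Each comparison below used edgeR's quasi-likelihood test, and calls required an adjusted p under 0.05 (Benjamini-Hochberg, 16976 tested genes). All 8 members were tested, Kcnk16 only because of its counts in the injured groups, so nothing is read from counts or medians that include it. In naive mice no member was called between knockout and control, beside 1.89% of all genes, and 3 members had an unadjusted p under 0.05, beside 11.7% of all genes. DESeq2 and limma-voom called none of the 8 either. Injury in controls called 1 member (Kcnk16), higher, beside 2.48% of all genes called and 2.12% called higher. Injury in knockouts called 2, Kcnk16 higher and Kcnk1 lower, beside 10.1% called, 7.17% higher and 2.94% lower. After injury, knockout against control called 1 (Kcnk18), higher, beside 1.04% called and 0.666% higher. The libraries of the compared groups did not overlap for 1, 2, 3 and 3 members in these 4 comparisons, beside 9.63%, 8.21%, 34.2% and 16.2% of all genes. Over 8 genes such counts are too small to set the group apart from the background, and the results below are those of single genes.

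The difference between the injury effects of the genotypes was called by edgeR for no member and for 0.0% of all genes (0 of 16976; 13.4% had an unadjusted p under 0.05), while DESeq2 called 12 genes, none of them a member. Because few libraries bear on each single effect, the mean of the naive and injured genotype effects and the mean of the injury effects were added after the data had been seen. The averaged genotype effect called Kcnk18 (higher) and Kcnk1 (lower), beside 4.17% of all genes, 2.19% higher and 1.98% lower. The averaged injury effect called Kcnk16 (higher) and Kcnk1 (lower), beside 12.4%, 8.27% and 4.09%. The comparisons share groups, so they are not independent of one another. The median log2 fold change of the 8 was 0.12 in naive knockout, 0.16 for injury in controls, 0.29 for injury in knockouts and 0.29 in knockout after injury, where the medians of all tested genes lay between -0.022 and 0.020. These medians include Kcnk16, so no shift of the members as a group is read from them.

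**Figure D2:**
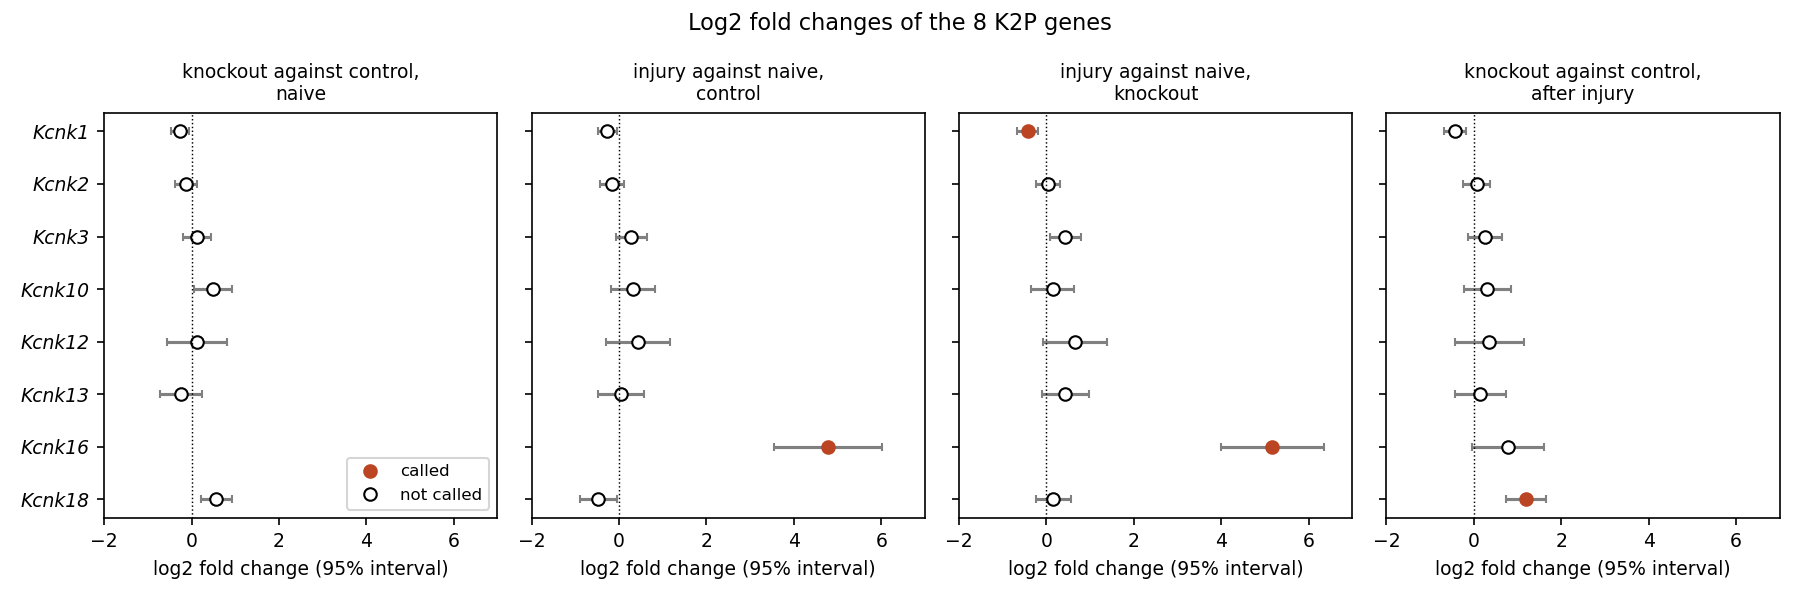
Log2 fold changes of the 8 K2P genes with 95% intervals from the edgeR fit, 1 panel for each of 4 comparisons; filled points were called at an adjusted p under 0.05. Kcnk16 is at 4.77 and 5.17 in the injury panels, Kcnk1 at -0.43 for injury in knockouts and Kcnk18 at 1.19 for knockout after injury; Kcnk16 has no value in the naive panel, where both groups were at the detection floor.

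Kcnk1 encodes TWIK-1, a weakly inward-rectifying leak channel (chr8:125995170-126030685, plus strand). Its level in the control naive libraries 1, 2, 3, 6 and 7 was 67.6, 69.6, 74.9, 68.4 and 67.0 CPM. In knockout naive 4, 5, 8 and 9 it was 58.1, 48.0, 65.9 and 59.4 CPM. All 4 knockouts lay below all 5 controls, but knockout replicate 8 came within 2 CPM of the lowest control. In control SNI 15, 18 and 23 it was 61.4, 53.9 and 58.1 CPM, and in knockout SNI 13, 19 and 21 it was 37.9, 41.1 and 49.4 CPM. The control SNI libraries lay below all control naive libraries, and the knockout SNI libraries lay below all control SNI libraries. Among the controls, wt replicate 7 was the lowest naive library, and wt replicates 18 and 23 lay below replicate 15. The knockout SNI and knockout naive libraries overlapped, at 49.4 and 48.0 CPM.

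Injury in knockouts lowered Kcnk1, with a log2 change of -0.43 ± 0.111 (SE, edgeR; adjusted p = 0.0218), to 0.741 times the naive level. This call was lost without knockout naive replicate 4 (adjusted p = 0.0502), 8 (0.0838) or 9 (0.0531), or without knockout SNI replicate 13 (0.0797) or 19 (0.111), while the log2 fold change stayed between -0.55 and -0.35. In naive mice the knockout difference was -0.27 ± 0.0958 (adjusted p = 0.238), injury in controls gave -0.27 ± 0.106 (adjusted p = 0.230), and knockout after injury gave -0.43 ± 0.119 (adjusted p = 0.0875), none of them called. The last was called by DESeq2 (adjusted p = 0.0246) and, in edgeR, without control SNI replicate 15 (adjusted p = 0.0476).

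Averaged over both states, Kcnk1 was lower in knockouts by -0.35 ± 0.0762 (adjusted p = 0.0138), and averaged over both genotypes it was lower after injury by -0.35 ± 0.0766 (adjusted p = 6.52e-03). Both averaged calls held in each of 15 fits that left out 1 library. The difference between the injury effects of the genotypes was -0.17, with a 95% interval from -0.49 to 0.16. Its reads also share exon bases with Gm45875 on the opposite strand, and since the strand setting of the counting is not given, reads of the pair cannot be told apart.

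Kcnk18 encodes TRESK, a leak channel of sensory neurons that calcineurin opens when calcium rises (chr19:59219214-59237374, plus strand). It was at 11.3, 11.7, 10.1, 16.1 and 8.31 CPM in control naive 1, 2, 3, 6 and 7. In knockout naive 4, 5, 8 and 9 it was at 17.99, 20.03, 14.9 and 14.9 CPM. Control replicate 6 lay above knockout replicates 8 and 9, and the other 4 controls lay below all knockouts. In control SNI 15, 18 and 23 it was at 10.1, 7.02 and 7.55 CPM, and in knockout SNI 13, 19 and 21 at 21.2, 17.1 and 18.6 CPM. After injury the groups stood well apart, and the lowest knockout was above every control library of either state.

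After injury Kcnk18 was higher in knockouts by 1.19 ± 0.215 on the log2 scale (SE, edgeR; adjusted p = 0.0119), which is 2.28 times the control level. The call held in each of 15 fits that left out 1 library. It was lost where only the 2 injured groups were fitted (1.19, adjusted p = 0.281), a fit that called 0 genes in all, and where the wt controls were left out (0.90, adjusted p = 0.169), which leaves control SNI replicate 15 alone in its group. Within the controls the wt libraries were the lowest in Kcnk18 in both states: replicate 7 was the lowest of 5 naive libraries, and replicates 18 and 23 lay below replicate 15. The part of Cre in the size of the difference cannot be told apart after injury beyond the fit without the wt libraries.

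In naive mice the Kcnk18 difference was 0.56 ± 0.168 (adjusted p = 0.119) and was not called, but it was called without control naive replicate 6 (0.72, adjusted p = 0.0305). Injury in controls gave -0.47 ± 0.199 (adjusted p = 0.262) and injury in knockouts 0.16 ± 0.187 (adjusted p = 0.614). The difference between these injury effects was 0.63 ± 0.273 (unadjusted p = 0.0344, adjusted p = 0.365), so a different response to injury was not shown. Averaged over both states Kcnk18 was higher in knockouts by 0.87 ± 0.136 (adjusted p = 1.11e-03), in each of the 15 fits as well. The 9 sensory neuron markers summed to 9299 to 10630 CPM in control naive, 10180 to 11050 in knockout naive, 9786 to 10880 in control SNI and 11260 to 12070 in knockout SNI, and the 6 nociceptor markers to 3116 to 3882, 2952 to 3535, 2508 to 3842 and 2377 to 3082 CPM. The neuron sums were highest in the injured knockouts, and 2 of the 6 nociceptor markers were called lower in naive knockouts, beside 1.89% of all genes called in either direction. Between the injured genotypes 0 of the 6 were called. The part of these markers in the result was not tested.

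Kcnk16 encodes TALK-1, an alkaline-activated channel best known from pancreatic islet cells (chr14:20261376-20269199, minus strand). Control naive 1, 2, 3, 6 and 7 held 0, 1, 0, 2 and 1 counts, and knockout naive 4, 5, 8 and 9 held 0, 1, 0 and 3 counts. The naive levels were thus at or under the limit of detection, and no genotype fold is given there. Control SNI 15, 18 and 23 held 24, 23 and 12 counts, or 2.50, 2.38 and 2.59 CPM, and knockout SNI 13, 19 and 21 held 30, 62 and 31 counts, or 3.79, 5.87 and 3.10 CPM. Every injured library lay above every naive one, and the 3 injured controls were nearly level with one another.

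Kcnk16 passed the filter on low counts only through the injured groups, so its tests describe the size of the rise and are no support for the members as a group. Injury raised Kcnk16 in controls by a fitted 4.77 ± 0.585 on the log2 scale (SE, edgeR; adjusted p = 1.12e-04) and in knockouts by 5.17 ± 0.559 (adjusted p = 1.66e-05). Both calls held in each of 15 fits that left out 1 library. With 4 naive counts in each genotype the fitted value depends on the default prior count of the edgeR fit. The ratio of summed counts was therefore computed as well: 31.7 in controls (59 against 4 counts, exact 95% interval 11.7 to 120) and 41.2 in knockouts (123 against 4, 15.7 to 153), for counting error only. Averaged over the genotypes the fitted rise was 4.97 ± 0.405 (adjusted p = 3.11e-07). Knockout naive replicate 9 holds 3 of the 4 naive knockout counts, and without it the fitted rise was 6.56 in knockouts and 5.68 on average. After injury the knockouts lay above the controls in every library, by 0.78 ± 0.392, which was not called (adjusted p = 0.242; 95% interval -0.045 to 1.61), although the summed counts gave a ratio of 1.75 with a counting interval from 1.27 to 2.43. That interval leaves out the spread between animals.

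The 7 injured-neuron markers moved in the same groups: they summed to 54.8 to 67.8 CPM in control naive, 50.3 to 55.7 in knockout naive, 586 to 710 in control SNI and 752 to 1228 in knockout SNI, and all 7 were called higher by injury in each genotype. Macrophage markers moved as well, from 102 to 122 and 118 to 152 CPM in the naive groups to 164 to 264 and 201 to 255 CPM in the injured ones, with 6 of 7 called higher in controls and 4 of 7 in knockouts. The parts of these cells in the rise of Kcnk16 were not tested. Each of the 3 T cell markers was under 1 CPM in every library. Their sums ran from 0.115 to 0.831 CPM in control naive and 0.198 to 0.665 in knockout naive. After injury they ran from 0.417 to 1.03 CPM in controls and 0.500 to 1.89 in knockouts.

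**Figure D3:**
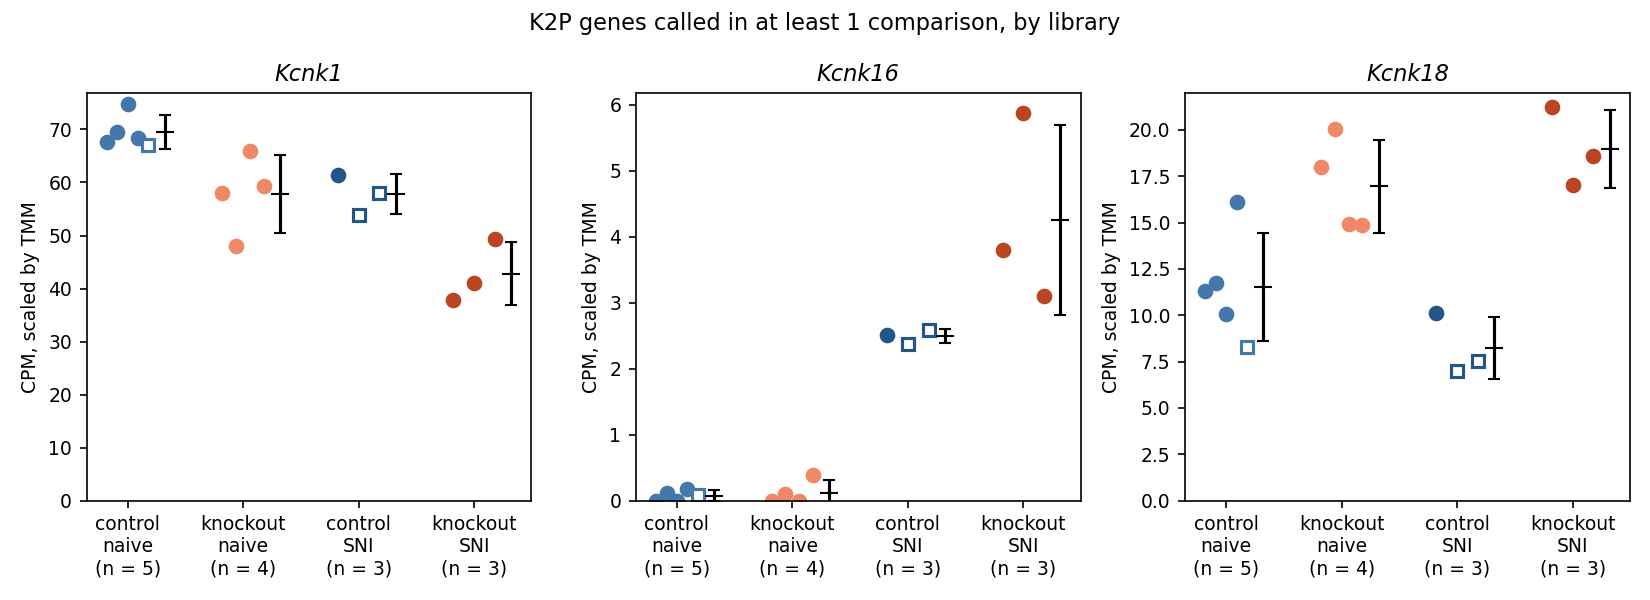
Levels of Kcnk1, Kcnk16 and Kcnk18 in CPM scaled by TMM, 1 point per library in the 4 groups; open squares are controls labelled wt, filled circles carry Cre, and the black bars give the mean and SD. Kcnk16 is at the floor in all naive libraries and at 2.38 to 5.87 CPM after injury, Kcnk1 is lowest in knockout SNI, and the knockout SNI libraries of Kcnk18 (17.1 to 21.2 CPM) lie above all controls.

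Kcnk2 and Kcnk10 encode TREK-1 and TREK-2, channels opened by stretch, warmth and polyunsaturated lipids and closed by receptor signalling. Kcnk2 (chr1:189207930-189402273, minus strand) stood at 17.9, 13.8, 12.9, 14.2 and 13.4 CPM in control naive 1, 2, 3, 6 and 7 and at 12.6, 14.2, 13.5 and 12.4 CPM in knockout naive 4, 5, 8 and 9. It was at 12.9, 14.6 and 11.01 CPM in control SNI 15, 18 and 23 and at 14.5, 12.9 and 13.3 CPM in knockout SNI 13, 19 and 21. The groups overlapped throughout. Its log2 differences were -0.13 for naive knockout (95% interval -0.37 to 0.11), -0.16 and 0.039 for injury in controls and knockouts, and 0.064 for knockout after injury (-0.24 to 0.37), none called, with 8mers for both miR-183 and miR-182 in its 3′ UTR. A430027H14Rik overlaps an exon of Kcnk2 on the opposite strand, with the same limit as for Kcnk1.

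Kcnk10 (chr12:98429437-98578310, minus strand) was at 4.53, 7.35, 5.32, 3.74 and 4.34 CPM in control naive 1, 2, 3, 6 and 7 and at 7.93, 7.24, 6.75 and 6.27 CPM in knockout naive 4, 5, 8 and 9. Control replicate 2 alone reached the knockout range. In control SNI 15, 18 and 23 it was at 6.26, 8.26 and 3.67 CPM, and in knockout SNI 13, 19 and 21 at 7.58, 9.19 and 6.60 CPM. The control SNI libraries spread widely, and the shallow replicate 23 was the lowest of all 15. The naive knockout difference was 0.49 ± 0.210 (unadjusted p = 0.0325, adjusted p = 0.357) and that after injury 0.31 ± 0.256 (adjusted p = 0.478), and injury gave 0.32 in controls and 0.14 in knockouts, none called.

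Kcnk3 encodes TASK-1, a background channel closed by extracellular acid (chr5:30588170-30625271, plus strand). It was at 9.75, 12.9, 8.22, 11.02 and 11.9 CPM in control naive 1, 2, 3, 6 and 7 and at 9.66, 12.2, 11.9 and 12.9 CPM in knockout naive 4, 5, 8 and 9. After injury it was at 15.6, 13.5 and 9.28 CPM in control SNI 15, 18 and 23 and at 16.4, 14.96 and 15.7 CPM in knockout SNI 13, 19 and 21. The injured knockouts lay above all naive knockouts, while among controls replicate 23 fell back into the naive range. Injury gave 0.43 ± 0.169 in knockouts (adjusted p = 0.115) and 0.28 ± 0.166 in controls (adjusted p = 0.427), not called. The knockout value was called where only the 2 knockout groups were fitted (adjusted p = 0.0186), without the wt controls (0.0300) and without control SNI replicate 23 (0.0264).

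Averaged over the genotypes Kcnk3 was higher after injury by 0.36 ± 0.119, with an adjusted p of 0.0594 in edgeR, 0.0261 in DESeq2 and 0.0482 in limma-voom. Without control SNI replicate 23 it was 0.45 (adjusted p = 0.00375), and without control naive replicate 2 it was 0.41 (adjusted p = 0.0399). The call thus depends on the test and on these libraries. The knockout differences were 0.12 in naive mice and 0.26 after injury (adjusted p = 0.882 and 0.394). Skeletal muscle markers summed to 144 to 1119 CPM in knockout SNI, 4.90 to 314 in control SNI, 15.8 to 189 in knockout naive and 3.83 to 92.9 in control naive, and their part in the injury values was not tested. Kcnk3 shares exon bases with Gm9899 on the opposite strand, which held 41 counts over the 15 libraries, beside 1760 for Kcnk3.

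Kcnk12 and Kcnk13 encode THIK-2, which is nearly silent when expressed alone, and THIK-1, the main resting potassium channel of microglia. Kcnk12 (chr17:87745801-87797994, minus strand) was at 2.76, 5.05, 2.24, 5.10 and 2.03 CPM in control naive 1, 2, 3, 6 and 7 and at 2.34, 4.26, 3.71 and 4.70 CPM in knockout naive 4, 5, 8 and 9. It was at 6.99, 3.82 and 2.37 CPM in control SNI 15, 18 and 23 and at 6.07, 5.40 and 6.20 CPM in knockout SNI 13, 19 and 21. The injured knockouts lay above all naive knockouts, while of the injured controls replicate 15 lay above every naive library and the wt replicates 18 and 23 lay within the naive range. Injury in knockouts gave 0.66 ± 0.349 (adjusted p = 0.237), called where only the 2 knockout groups were fitted (adjusted p = 0.0374). The difference of knockouts after injury was 0.36 ± 0.375 and turned to -0.25 without the wt controls, neither called.

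Kcnk13 (chr12:99964499-100062682, plus strand) was at 7.88, 8.73, 4.201, 6.74 and 6.28 CPM in control naive 1, 2, 3, 6 and 7 and at 6.00, 6.94, 3.99 and 6.01 CPM in knockout naive 4, 5, 8 and 9. It was at 7.51, 8.36 and 4.32 CPM in control SNI 15, 18 and 23 and at 5.94, 8.14 and 8.90 CPM in knockout SNI 13, 19 and 21. The groups overlapped in every comparison. Injury gave 0.044 ± 0.246 in controls and 0.43 ± 0.254 in knockouts, and the knockout differences were -0.24 and 0.15, none called. The injury intervals of Kcnk13 ran from -0.48 to 0.56 in controls and from -0.11 to 0.97 in knockouts, beside the macrophage markers given above, of which 6 of 7 and 4 of 7 were called higher. Control SNI replicate 23 was the lowest of its group in Kcnk2, Kcnk3, Kcnk10, Kcnk12 and Kcnk13 alike. It was the highest of its group in Kcnk16, at 2.59 CPM, and in the middle in Kcnk1 and Kcnk18. The part of its low depth and high mitochondrial share in these values was not tested.

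**Figure D4:**
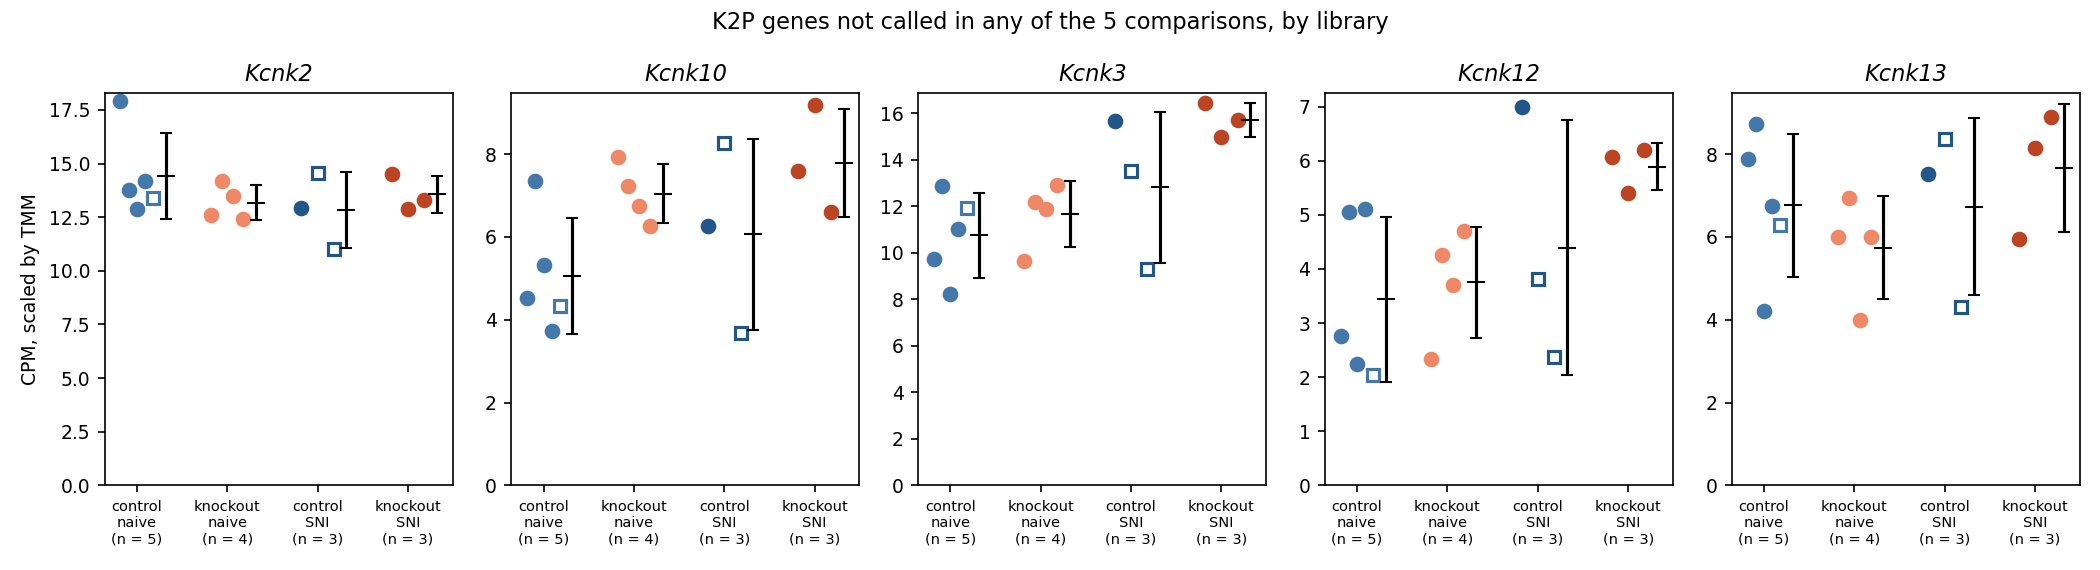
Levels of Kcnk2, Kcnk10, Kcnk3, Kcnk12 and Kcnk13 in CPM scaled by TMM, 1 point per library; open squares are controls labelled wt, filled circles carry Cre, and the black bars give the mean and SD. Within each state the control and knockout libraries overlap in all 5 genes, and control SNI replicate 23 is the lowest point of its group.

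The knockout differences of the 5 members with an 8mer are given together here. In naive mice they were -0.27 for Kcnk1, -0.13 for Kcnk2, 0.49 for Kcnk10 and 0.56 for Kcnk18, none called, with no value for Kcnk16. After injury they were 1.19 for Kcnk18, which was called, and 0.78 for Kcnk16, 0.31 for Kcnk10, 0.064 for Kcnk2 and -0.43 for Kcnk1, which were not. The 3 members without a match had differences of -0.24 to 0.13 in naive mice and 0.15 to 0.36 after injury, not called. No test of the sites against the differences was made over so few genes.

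Over the 15 libraries, the tested genes whose log2 CPM was most like that of Kcnk1 were Sv2b (Pearson r = 0.919), Gsdme (0.919) and Slc34a2 (0.916). Those most like Kcnk16 were Gadd45a (0.977), Rhoq (0.976) and Mmp16 (0.975), and those most like Kcnk18 were Ppm1l (0.889), Ankrd27 (0.889) and Hsp90ab1 (0.885). The points share the 4 groups, so a likeness mostly restates which groups are high. The values describe these libraries and carry no test.

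Of the 6 other mouse K2P genes, Kcnk4, Kcnk5, Kcnk6 and Kcnk9 were tested and none was called in any comparison, while Kcnk7 and Kcnk15 did not pass the filter on low counts. Kcnk4, which encodes TRAAK, a lipid- and stretch-gated relative of the TREK channels, was at 9.15 ± 0.850 CPM in control naive, 11.3 ± 1.11 in knockout naive, 8.24 ± 2.19 in control SNI and 11.2 ± 1.58 in knockout SNI. Its knockout differences were 0.29 ± 0.141 in naive mice (adjusted p = 0.433) and 0.41 ± 0.176 after injury (adjusted p = 0.189). Kcnk9, which encodes TASK-3, was close to the floor, at 1.02 ± 0.476 CPM in control naive and 0.379 ± 0.175 in knockout naive (-1.37 ± 0.547, adjusted p = 0.308). Kcnk5 (TASK-2) lay between 9.05 and 10.3 CPM in the group means, and Kcnk6 (TWIK-2) between 1.36 and 2.04 CPM.

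Among 30 genes for partners and regulators of K2P channels (phosphatases, kinases, adaptors, G proteins), all tested, 2 were called higher in naive knockouts, 1 higher by injury in knockouts, and none in the other comparisons of single effects or in the difference of effects. Over all genes 1.89% were called in either direction in naive knockouts, and 7.17% were called higher by injury in knockouts. Ppp3r1, the regulatory subunit of the calcineurin that activates TRESK, was at 198 ± 13.3 CPM in control naive and 303 ± 26.0 in knockout naive (0.62 ± 0.110, adjusted p = 5.81e-03), and at 231 ± 53.9 and 273 ± 27.7 CPM after injury (0.24 ± 0.135, adjusted p = 0.292). Prkce, protein kinase C epsilon, rose from 237 ± 24.2 to 327 ± 37.9 CPM in naive knockouts (0.47 ± 0.105, adjusted p = 0.0292), with a similar uncalled value after injury (0.48 ± 0.129, adjusted p = 0.0843). Gna11, a G protein alpha subunit of the pathway that closes TREK and TASK channels, and Map2, a microtubule protein that binds TREK-1, had 0.57 ± 0.140 (adjusted p = 0.066) and 0.50 ± 0.118 (adjusted p = 0.053) after injury, not called. Averaged over both states 4 of the 30 were called higher and 2 lower, beside 2.19% and 1.98% of all genes: Gna11 (0.47 ± 0.0902, adjusted p = 5.60e-03), Map2 (0.34 ± 0.0760, adjusted p = 0.0156), Ppp3r1 (0.43 ± 0.0875, adjusted p = 8.39e-03) and Prkce (0.47 ± 0.0831, adjusted p = 3.01e-03) were higher. The 2 lower, named after their values were seen, were Ppp3cc, a catalytic subunit of calcineurin (-0.29 ± 0.0699, adjusted p = 0.0243), and Bves, a membrane protein that binds TREK-1 (-0.56 ± 0.151, adjusted p = 0.0466). No gene of the list was called in the averaged injury effect. The list's median was 0.041 in naive knockouts and 0.075 in knockouts after injury, and the count after injury went from 0 to 10 without control SNI replicate 15, to 3 without replicate 18 and to 1 without replicate 23. The count in naive knockouts went to 1 without control naive replicate 1, 2, 3 or 7 or knockout naive replicate 4, 5 or 9. The gene called by injury in knockouts was Mark1, a kinase of the family that acts on TRESK, named after its value was seen (0.46 ± 0.139, adjusted p = 0.0442); that count went to 0 without control naive replicate 1 or 2 or any knockout library but naive replicate 9, to 2 without control SNI replicate 15 and to 9 without control SNI replicate 23.

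Of 25 genes for other channels and pumps that act near rest, 1 was called lower in knockouts in both states, 3 were called higher by injury in knockouts, and none by injury in controls. Beside 7.17% of all genes called higher by injury in knockouts, 3 of 25 is close to the background. For the 1 of 25 called lower in knockouts, 1.89% (naive) and 1.04% (after injury) of all genes were called in either direction. The share called lower is not given here, so that count is not set against the background. In the averaged effects of genotype and of injury, 2 were called higher and 2 lower each, beside 2.19% and 1.98%, and 8.27% and 4.09%, of all genes. Kcnq5, a subunit of the M-type potassium channel, was at 28.9 ± 2.14 CPM in control naive and 18.7 ± 2.17 in knockout naive (-0.63 ± 0.103, adjusted p = 2.81e-03), and at 26.9 ± 3.84 and 17.4 ± 0.453 CPM after injury (-0.63 ± 0.127, adjusted p = 0.0230). The knockout libraries of Kcnq5 lay below all controls in both states. Injury in knockouts raised Kcnq3, another M-channel subunit, by 0.73 ± 0.127 (adjusted p = 1.86e-03). In controls injury gave 0.46 ± 0.123 for Kcnq3 (adjusted p = 0.0599), not called, and the difference between the genotypes' injury effects was not called (0.27 ± 0.178, adjusted p = 0.479). Averaged over both states Kcnq5 was lower by -0.63 ± 0.0815 (adjusted p = 1.98e-04) and Kcnq3 higher by 0.35 ± 0.0891 (adjusted p = 0.0345). The medians of the list were -0.026 in naive knockouts and 0.085 for injury in knockouts, and its count in naive knockouts went from 1 to 3 without control naive replicate 6 or control SNI replicate 15 and to 4 without control SNI replicate 23. The count for injury in knockouts went from 3 to 6 without knockout SNI replicate 13, to 5 without control SNI replicate 15 or 23 and to 1 without knockout SNI replicate 19. The count in knockouts after injury went from 1 to 8 without control SNI replicate 15 and to 0 without knockout SNI replicate 19 or 21.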

How the data were processed

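The deposited table holds read counts per gene, whole numbers that the authors did not normalise, for 39179 Ensembl identifiers in 15 libraries made with a stranded mRNA kit, per the labels' protocols. Per the submitters' processing notes the tools included HTSeq 0.6.1 and TopHat2 2.0.4, with the build GRCm38; how strand and multiply mapped reads were handled is not given in the sources used here. GENCODE M21 gave a symbol to 37607 identifiers, and 0.523% of all counts lay outside those.

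Among the 27310 detected genes, 16976 passed filterByExpr of edgeR 4.0.16 by group (minimum count 10). One model with 4 group means (TMM, robust quasi-likelihood F test, two-sided, 11 residual degrees of freedom, common biological coefficient of variation 15.3%) gave all tests; the SE is the log2 fold change over the square root of F. Calls used a Benjamini-Hochberg adjusted p under 0.05. Log2 CPM, used to find the genes most like a member, took a prior count of 2, while the fitted fold changes kept edgeR's default. Alternatives were DESeq2 1.42.0, limma-voom 3.58.1, other scalings and filters, only the groups compared, no wt controls, and leaving out each library. The fit was also run on simulated data with the same spread for all genes and changes in the knockout SNI group alone. That run does not test the calls made in these data.

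Replicate numbers are not shared between groups. The members and gene lists were chosen with earlier results of these data known. All 8 members are named, at most 4 genes of each other list (smallest p in any comparison; some of these are not reported here), and the 3 genes most like each called member (mean of at least 1 CPM). Sequences are from RefSeq (GRCm38.p6) and the GRCm38 genome; protein sequences were not used here.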

Additional observations from a re-analysis of the deposited data

Results flagged for a closer look

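In the groups of 4 or 5 libraries, 1 value stood apart from its group: Kcnk2 in control naive replicate 1 was at 17.9 CPM, where the other 4 control naive libraries lay between 12.9 and 14.2 CPM, and its gap to the nearest of them was 0.736 of the group's range. Chance marks about 1 in 20 groups, and 16 groups were checked. The naive knockout difference of Kcnk2 was not called.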

How the results depend on the processing

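Recomputed under each alternative were 45 log2 fold changes: those of the 5 comparisons, without Kcnk16 in naive knockout and in the difference, and the averaged effects of Kcnk1, Kcnk3, Kcnk18 and, for injury, Kcnk16. Of the values obtained, 983 kept their direction and their side of the threshold, 7 lost a call, 14 gained one and 17 turned, all of the last in results not called. The cause of these changes was not tested, and some of the alternatives also fitted fewer libraries. Where only the groups compared were fitted, members called numbered 1 (Kcnk1, adjusted p = 0.049) for naive knockout, 4 for injury in knockouts and 0 for knockout after injury. Without the wt controls they numbered 0 for knockout after injury and 4 for the averaged injury effect, and DESeq2 gave 2 for knockout after injury. Leaving out 1 library gave 0 to 1 members called for naive knockout, 1 to 3 for injury in knockouts, 1 to 2 for knockout after injury, and 2 to 4 for the averaged injury effect; injury in controls, the difference and the averaged genotype effect stayed at 1, 0 and 2.

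Without the wt controls, Kcnk12 turned to -0.016 in naive knockout, -0.25 in knockout after injury and -0.24 in the difference, and Kcnk3 to -0.0010 in knockout after injury and -0.16 in the difference. Without TMM, Kcnk13 turned to -0.0021 for injury in controls and Kcnk2 to -0.012 for injury in knockouts. Leaving out 1 library, the ranges among these 45 that crossed 0 were -0.016 to 0.33 (Kcnk12, naive knockout), -0.075 to 0.67 (Kcnk12, injury in controls), -0.13 to 0.24 (Kcnk13, injury in controls), -0.032 to 0.32 (Kcnk13, knockout after injury), -0.010 to 0.093 (Kcnk2, injury in knockouts), -0.013 to 0.17 (Kcnk2, knockout after injury), and, for the difference, -0.38 to 0.097 (Kcnk10) and -0.0023 to 0.31 (Kcnk3).

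K2P regulators called in naive knockout numbered 5 with only the groups compared and 4 without the wt controls (1 to 3 leaving out 1 library), for injury in knockouts 9 under each of these, 2 by DESeq2 and 0 without TMM (0 to 9), for injury in controls 1 by DESeq2 (0 to 4), for knockout after injury 4 by DESeq2 and 1 with RLE factors or a filter of 1 CPM in 3 libraries (0 to 10), and for the difference 0 to 2. The other resting-membrane genes numbered 3 by DESeq2, 5 with only the groups compared and 3 without the wt controls in naive knockout (1 to 4), 5 and 6 under the last pair for injury in knockouts (1 to 6), 1 by DESeq2, RLE factors, the 1 CPM filter or without the wt controls for injury in controls (0 to 2), 3 by DESeq2 and 0 with only the groups compared for knockout after injury (0 to 8), and 0 to 2 for the difference.

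Over all tested genes the calls ranged from 151 to 1017 in naive knockout, 213 to 1506 for injury in controls, 587 to 4745 for injury in knockouts, 0 to 3558 for knockout after injury and 0 to 1235 for the difference. The highest values for injury in controls, knockout after injury and the difference were those without control SNI replicate 15, the Cre-carrying library of its group. With 3 libraries in each injured group and 12 to 62 injured-library counts for Kcnk16, small differences between genotypes were not detectable.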
